A study of Mus musculus with 6 samples.

Results

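Myosin light chain kinases were examined as the 4 genes of this family, Mylk, Mylk2, Mylk3 and Mylk4, taken as the rows of the count files whose symbol equals one of these names. All 4 were found among the 24421 genes listed for each of 6 libraries of mRNA from gastrocnemius-plantaris (GP) muscle, a hindlimb muscle group of mostly fast fibres. The study asked what follows when Net39, a gene for a nuclear envelope protein of muscle, is deleted in adult skeletal muscle. The labels name 3 control mice (Ctrl, genotype Net39 fl/fl without Cre) and 3 conditional knockout mice (cKO, HSACreERT2 with Net39 fl/fl), 1 mouse per library, all of the B6C3F1 background, 5 months of age and 3 months after tamoxifen. Both groups therefore carry the floxed alleles, with loxP sites around the first exon of Net39, and both received tamoxifen. By the study's methods the mice were male. The founders, made from B6C3F1 zygotes, had been mated to another strain before the cross to the Cre line. The Cre is driven by the human skeletal actin promoter, which is active in skeletal muscle fibres and not in satellite cells or heart, so that cells other than fibres keep the gene in cKO muscle.

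A myosin light chain kinase is an enzyme that is switched on by calcium-loaded calmodulin and phosphorylates the regulatory light chain, a small subunit on the neck of myosin. In fast skeletal muscle this phosphorylation raises the force of later contractions, whereas in smooth muscle it starts contraction itself, and in both the myosin phosphatase takes the phosphate off again. Mylk encodes the kinase of smooth muscle and non-muscle cells, Mylk2 that of skeletal muscle and Mylk3 that of heart, while Mylk4 is the least studied of the family.

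The targeted gene went against the labels. Net39, listed under its older symbol Ppapdc3, had 310, 321 and 217 counts in Ctrl-labelled libraries 1, 2 and 3 and 5365, 4340 and 6080 counts in cKO-labelled ones 1, 2 and 3 (log2 fold change 4.22 with a standard error, SE, of 0.17, adjusted p = 0.000161 by the quasi-likelihood test of edgeR with Benjamini-Hochberg adjustment). The gene meant to be deleted was thus abundant where the label says cKO, and the counts, which are per gene, do not separate the deleted exon from the rest. Every direction below is given for the labelled groups, as labelled cKO over labelled Ctrl, and no library was reassigned. Whether labels or files of the groups were exchanged was not tested; an exchange would turn every direction given. The libraries held 33860001 to 38201728 counts (labelled Ctrl) and 39191239 to 48839910 counts (labelled cKO), totals that do not overlap. Levels are given as CPM, the counts scaled to library size with edgeR's TMM factors, and the test covered the 14180 genes that passed edgeR's filter on low counts. At an adjusted p under 0.05 together with a change of more than 2-fold, 302 genes (2.13%) were higher in cKO-labelled libraries and 556 (3.92%) in Ctrl-labelled ones; with scaling by total counts alone the split was 157 against 1023. Without the fold limit the shares were 12.6% and 11.8%, and in 43.9% of all genes tested the groups did not overlap. Over all genes tested the median log2 fold change was -0.02 with TMM factors and -0.27 with total counts.

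Mylk2 and Mylk4, the kinases that are most abundant in this muscle, were 4.05-fold and 5.02-fold higher in cKO-labelled libraries, whereas Mylk and Mylk3 had lower values there that did not pass the adjusted threshold. All 4 members passed the filter, and 2 of 4 passed the test with a fold change over 2, both higher in cKO-labelled libraries, against 2.13% of all genes tested. The median log2 fold change of the family was 0.88, with Mylk3 included, which has few reads and entered the test through the group where it is high. In whole muscle, fewer cells of a type and less RNA per cell cannot be told apart. The labelled groups did not overlap for any of the 4 genes, a pattern that 43.9% of all genes tested share.

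**Figure D1:**
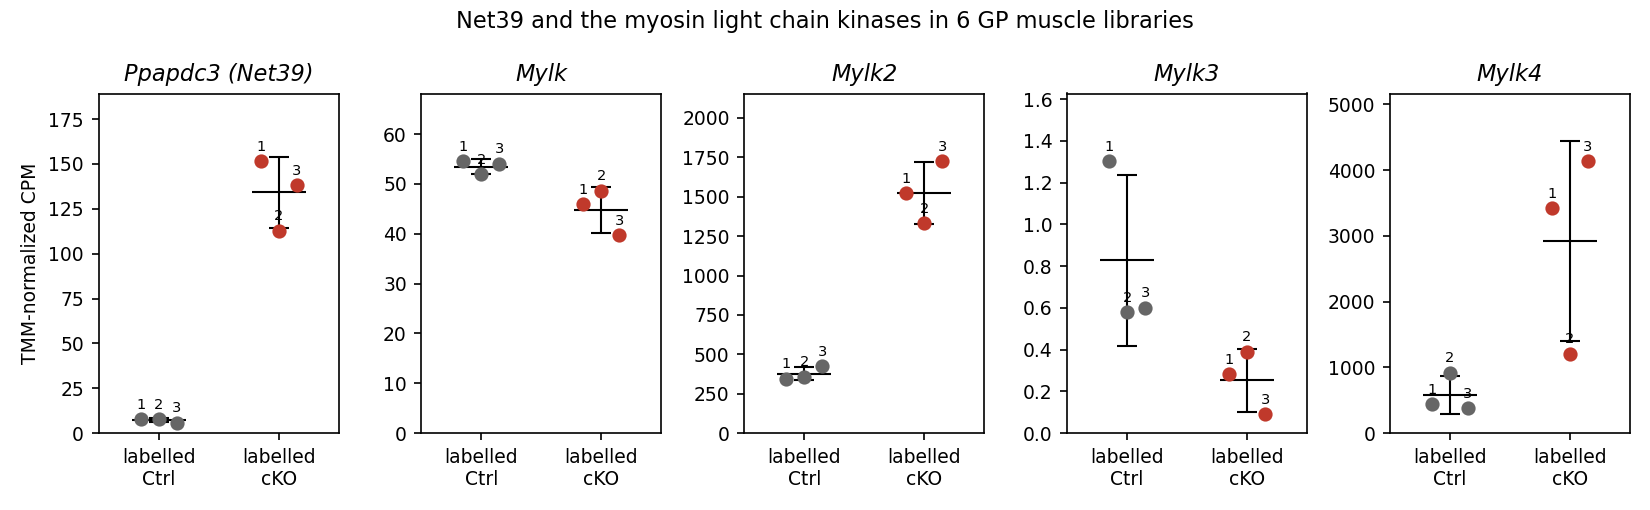
TMM-normalized CPM (linear axes from 0, a separate scale for each gene) of Net39 and the 4 kinases in each library; numbers name the replicates, lines are means and bars SD (n = 3 mice). Net39, Mylk2 and Mylk4 lie higher in cKO-labelled libraries and Mylk and Mylk3 lie lower, and Mylk4 runs from 1210 CPM in cKO 2 to 4133 CPM in cKO 3.

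Mylk2, the skeletal muscle kinase (ENSMUSG00000027470, chr2:152911352-152923068 of GRCm38, also called mm10, plus strand, 1 transcript of 12 exons), had 346, 359 and 425 CPM in Ctrl-labelled libraries 1, 2 and 3 and 1521, 1332 and 1724 CPM in cKO-labelled ones 1, 2 and 3. The 3 values within each group lay close together, 1.23-fold and 1.29-fold from lowest to highest, and the groups were far apart. Its means were 377 ± 42.4 CPM and 1526 ± 196 CPM (SD, n = 3), a log2 fold change of 2.02 (SE 0.14, adjusted p = 0.000627 from edgeR). Of the 14180 genes tested, Mylk2 ranked 27 by p and 107 by mean CPM. The call held in all 13 alternatives tried, with log2 fold changes from 1.76 to 2.12.

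Mylk4 (ENSMUSG00000044951, chr13:32700834-32783954, minus strand, 4 transcripts) had 441, 921 and 384 CPM in Ctrl-labelled libraries 1, 2 and 3 and 3418, 1210 and 4133 CPM in cKO-labelled ones 1, 2 and 3. Mice of the same label differed by as much as 2.40-fold (Ctrl) and 3.42-fold (cKO), and Ctrl 2 and cKO 2 lay next to each other without overlapping. Its means were 582 ± 295 CPM and 2920 ± 1524 CPM (SD, n = 3), and its log2 fold change of 2.33 was larger than that of Mylk2 but far less certain (SE 0.52, adjusted p = 0.0194). The gene ranked 27 by fold change among genes higher in cKO-labelled libraries and 1848 by p. The call was lost without library Ctrl 1 (log2 fold change 2.16, adjusted p = 0.0753), cKO 1 (2.19, 0.0615) or cKO 3 (1.97, 0.0627), and held without each of the other libraries. It was also lost when edgeR's fit held a block for the mouse number (2.32, adjusted p = 0.0775).

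The 250 bases before the RefSeq start of Mylk4 are printed because the gene is one of the pair that was higher in cKO-labelled libraries, beside those of Mylpf, the fast-muscle regulatory light chain, the substrate of the skeletal muscle kinase, which was higher there too. Sequences are RefSeq's on GRCm38.p6, written 5′ to 3′ on the strand of the gene, and capitals mark E-boxes (CANNTG on either strand), the short sequence that myogenic factors such as MyoD recognise. Of the 4 kinases 3 had an entry in the promoter table; Mylk2 did not.
Mylk4, chr13:32783965-32784214, minus strand: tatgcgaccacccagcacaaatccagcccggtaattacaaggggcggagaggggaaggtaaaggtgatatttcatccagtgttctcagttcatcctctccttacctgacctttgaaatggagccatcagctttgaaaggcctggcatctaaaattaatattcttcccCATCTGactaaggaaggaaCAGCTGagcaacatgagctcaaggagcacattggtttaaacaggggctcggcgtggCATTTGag
Mylpf, chr7:127211358-127211607, plus strand: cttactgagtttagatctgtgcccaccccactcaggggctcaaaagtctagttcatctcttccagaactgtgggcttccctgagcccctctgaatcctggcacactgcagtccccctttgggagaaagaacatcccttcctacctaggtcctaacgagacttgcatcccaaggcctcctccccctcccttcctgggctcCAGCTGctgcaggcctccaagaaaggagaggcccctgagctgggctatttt
The Mylk4 sequence holds 3 E-boxes, beginning 83, 64 and 8 bases before the start, the one at 64 being CAGCTG, the form preferred by MyoD. It also holds a match to the MEF2 site 103 bases before the start, which 2.9% of 32851 promoters of this length share. The Mylpf sequence holds a single E-box, again CAGCTG, 51 bases before the start. CANNTG occurs in 66.2% of all promoters and CAGCTG, which is counted within it, in 13.0%. The Mylk sequence (chr16:34784700-34784949) had no E-box and 1 MCAT element (CATTCC, in 12.6% of promoters), and of the pair listed for Mylk3 the one at chr8:85381042-85381291 had 1 E-box and the one at chr8:85365325-85365574 had 1 MCAT element. No CArG box (in 1.5% of promoters) was found in any of these sequences. Such matches describe letters, not bound sites. In the GENCODE models the principal Mylk4 transcript begins at 32781716, away from the RefSeq start used here. Only RefSeq starts were scanned, so that other starts, such as those of internal Mylk transcripts, were not examined.

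Mylk, the smooth muscle and non-muscle kinase (ENSMUSG00000022836, chr16:34745210-35002420, plus strand, 8 transcripts), had 54.5, 51.9 and 54.1 CPM in Ctrl-labelled libraries 1, 2 and 3 and 45.9, 48.6 and 39.8 CPM in cKO-labelled ones 1, 2 and 3. The labelled groups lay apart by a small margin. The log2 fold change was -0.26 (SE 0.09, adjusted p = 0.0754 from edgeR), which did not pass. It passed with total counts (log2 fold change -0.51, adjusted p = 0.0156), where the median of all genes shifts the same way, and without library cKO 2 (-0.34, adjusted p = 0.0388). On the opposite strand 548 bases of its exons are shared with E130310I04Rik, which had 2 to 10 counts per library, and 224 bases with Gm21691; whether strand was used in counting is not given in the sources used here.

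Mylk3, the heart kinase (ENSMUSG00000031698, chr8:85324303-85386345, minus strand, 5 transcripts), was close to the limit of detection. It had 51, 24 and 22 counts in Ctrl-labelled libraries 1, 2 and 3 and 10, 15 and 4 counts in cKO-labelled ones 1, 2 and 3. In CPM these were 1.30, 0.579 and 0.602 against 0.282, 0.39 and 0.0909, and the groups did not overlap, on few reads. It exceeded the filter's minimum of 0.258 CPM in 3 libraries labelled Ctrl and 1 labelled cKO and thus entered the test through the group where it is high. The log2 fold change, -1.72, did not pass (SE 0.55, adjusted p = 0.0602 from edgeR) and passed with DESeq2 (-1.71, adjusted p = 0.0303) and with total counts (-1.97, adjusted p = 0.0357). Given that entry and the few reads, these fits are given as values only.

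Levels of the 4 genes can be compared with each other only per length, here as CPM per kilobase of the union of all exons. On that scale the order in Ctrl-labelled libraries was Mylk2 (128 ± 14.4), Mylk4 (75.7 ± 38.3), Mylk (4.75 ± 0.125) and Mylk3 (0.193 ± 0.0960), and in cKO-labelled ones Mylk2 (517 ± 66.4), Mylk4 (380 ± 198), Mylk (3.97 ± 0.403) and Mylk3 (0.0594 ± 0.0353; all SD, n = 3). Mylk2 and Mylk4, neighbours in this order, overlapped in both groups: Mylk2 ran from 117 to 144 and Mylk4 from 49.9 to 120 in Ctrl-labelled libraries. Mylk and Mylk3 were separate from their neighbours in every library. Of the summed level of the family, Mylk held 1.87% to 2.69% in Ctrl-labelled libraries and 0.314% to 0.704% in cKO-labelled ones. Mylk2 held 49.4% to 72.4% and 51.9% to 73.6%, ranges that nearly coincide. The order of the leading pair depends on the length used: with the principal transcript of Mylk4 (5571 bases against 7689 in the union, a length chosen after the values were seen) the means were 104 and 524 per kilobase, beside 128 and 517 for Mylk2, and with the annotated transcript of the longest coding sequence (1541 bases, an incomplete model) 378 and 1895. The shares move with it: with the latter lengths Mylk2 held 16.8% to 36.0% in Ctrl-labelled libraries and 17.9% to 36.3% in cKO-labelled ones, and Mylk4 62.2% to 82.3% and 63.2% to 82.0%.

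Ratios of counts within a library do not depend on how libraries are scaled, and they show whether a pair of genes changed unequally. Of 7 ratios compared, 3 hold Mylk3, with its few reads and its entry through the group where it is high, and are given as values only: Mylk3 relative to Mylk4 differed by -4.02 on the log2 scale, and by -4.61 without library Ctrl 2, -4.97 without cKO 2 and -3.10 without cKO 3. The log2 ratio of Mylk2 to Mylk3 differed by 3.78 (3.10 without cKO 3) and that of Mylk to Mylk3 by 1.5. Of the other 4, 3 separated the groups (exact permutation test, two-sided, p = 0.1, which is as small as 3 mice against 3 can give; 0.117 after Benjamini-Hochberg adjustment over the 7). The log2 ratio of Mylk to Mylk2 differed by -2.28, and by -2.43 to -2.10 with a library left out. The exception was Mylk2 to Mylk4. Its log2 ratio was -0.35, -1.36 and 0.15 in Ctrl-labelled libraries 1, 2 and 3 and -1.17, 0.14 and -1.26 in cKO-labelled ones 1, 2 and 3, ranges that lay across each other (difference -0.24, exact permutation test, p = 0.9). That difference changed sign without library Ctrl 3 (0.09) or cKO 3 (0.01).

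Mylk2 also stood higher relative to its substrate. The log2 ratio of Mylk2 to Mylpf was -3.57, -3.94 and -3.73 in Ctrl-labelled libraries 1, 2 and 3 and -2.43, -2.31 and -2.27 in cKO-labelled ones 1, 2 and 3, a difference of 1.41 with no overlap (exact permutation test, p = 0.1). The other 3 ratios were chosen after the values were seen. Mylk4 to Mylpf differed by 1.65, again without overlap (exact permutation test, p = 0.1, and 0.143 adjusted over all 10 ratios). Set against Myh4, the myosin heavy chain of the fastest (type IIb) fibres, the groups overlapped: the log2 ratio of Mylk2 to Myh4 was -5.47, -6.10 and -6.43 in Ctrl-labelled libraries and -5.72, -5.43 and -5.40 in cKO-labelled ones (difference 0.48, exact permutation test, p = 0.2), and that of Mylk4 to Myh4 differed by 0.73 (p = 0.4, exact permutation test). Log2 fold changes of the 8 fast fibre markers described below ran from 0.64 to 1.58 (median 1.00), with Myh4 at 1.46. Ratios to the other markers of that list were not taken.

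**Figure D2:**
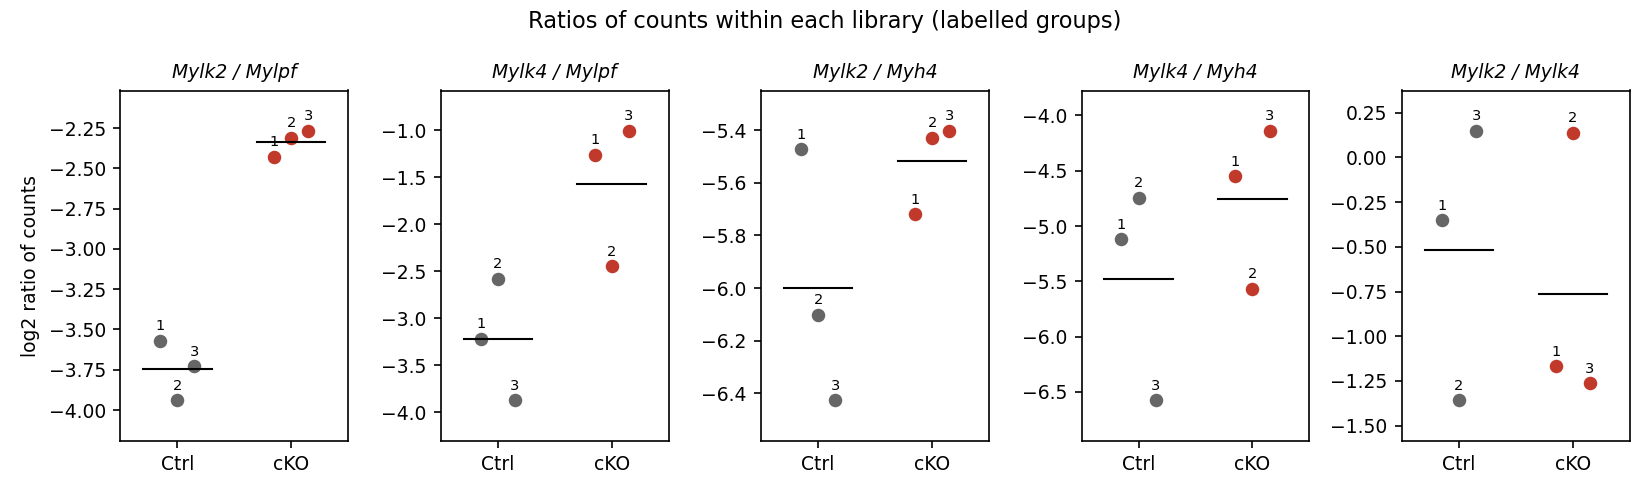
Log2 ratio of the counts of 2 genes within each library (vertical axes, a separate scale for each pair), by labelled group; points are libraries with their replicate numbers and lines are group means (n = 3). The groups separate for Mylk2 to Mylpf and Mylk4 to Mylpf, and overlap for the ratios to Myh4 and for Mylk2 to Mylk4.

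The genes around the kinases were taken from 7 lists of calmodulins, myosin light chains, phosphatase subunits and other kinases, 48 genes of which 46 were tested. At an adjusted p under 0.05, 9 were higher in cKO-labelled libraries and 7 in Ctrl-labelled ones, and 30 did not pass; the shares among all genes tested were 12.6% and 11.8%. Calmodulin is the calcium sensor that switches these kinases on. Its gene Calm3, named after its value was seen, was higher in cKO-labelled libraries by a log2 fold change of 0.96 (SE 0.16, adjusted p = 0.00783 from edgeR), and Calm2 had one of 0.35 that did not pass (adjusted p = 0.0953) except without library Ctrl 3 (0.47, adjusted p = 0.0345).

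**Figure D3:**
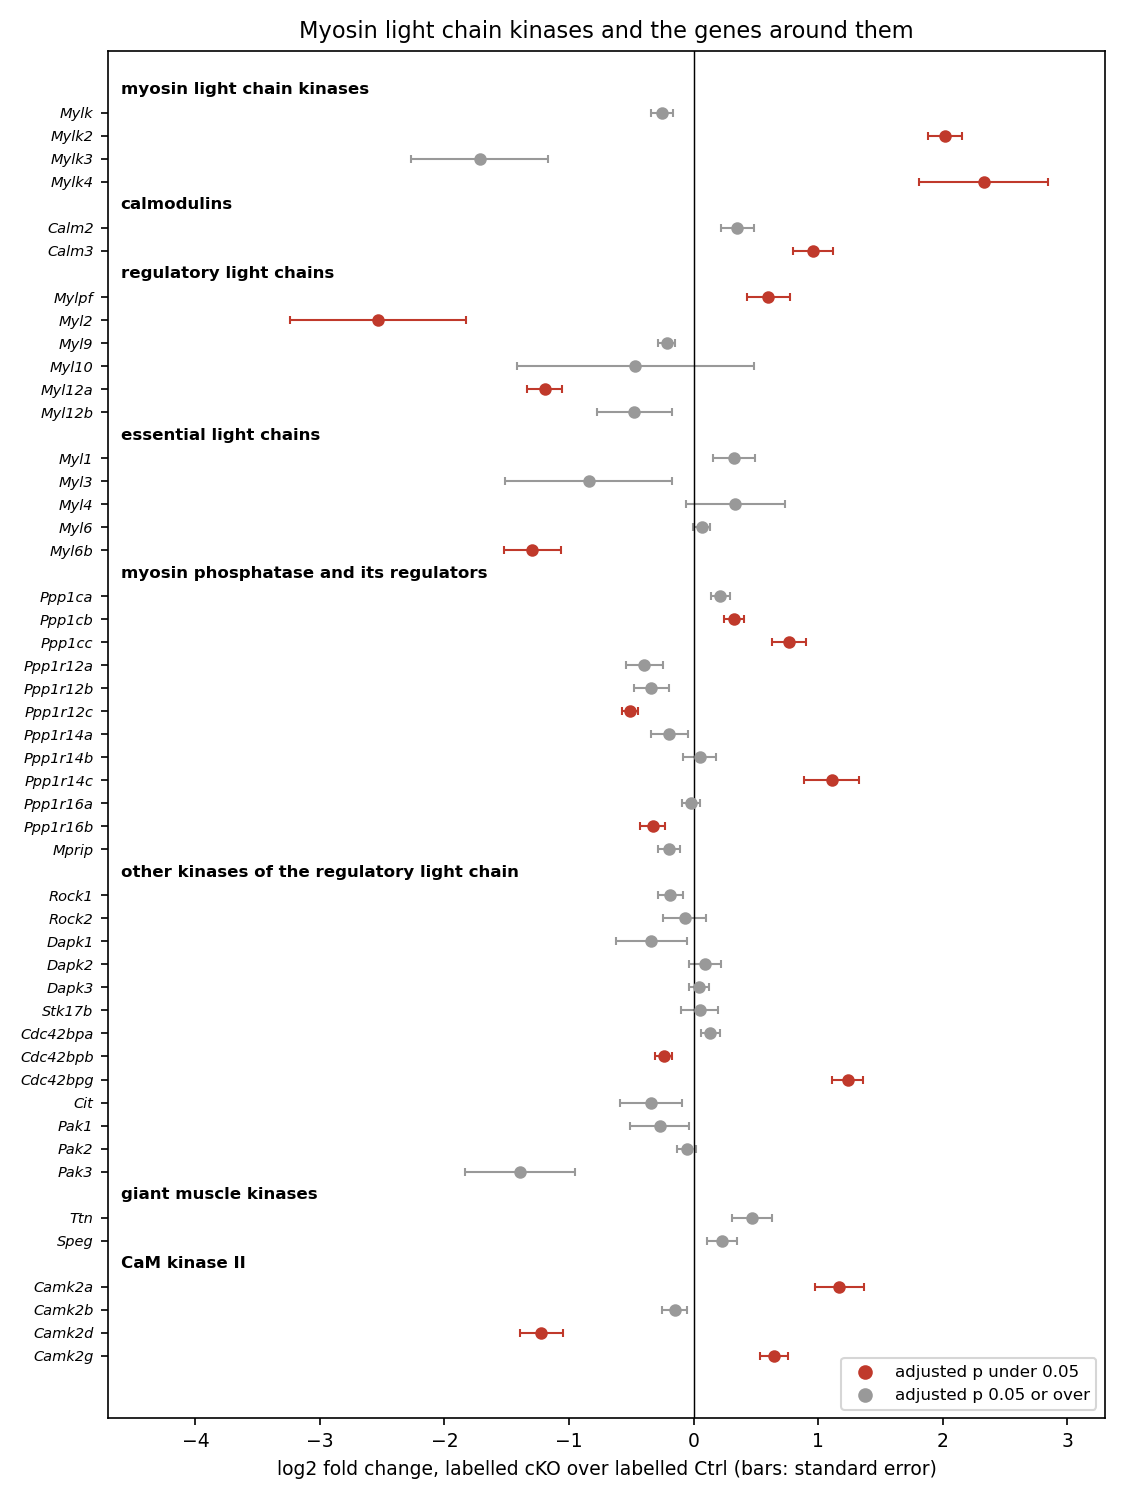
Log2 fold change, labelled cKO over labelled Ctrl (horizontal axis; bars are standard errors from edgeR's fit of 3 libraries per group), of tested genes of the family and of the 7 lists around it; red marks an adjusted p under 0.05. Mylk2 (2.02) and Mylk4 (2.33) are the points farthest to the right, and Myl2 (-2.54) is the one farthest to the left.

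The regulatory light chains, the substrates, did not move one way. Of 7 genes 6 were tested, of which 1 was higher in cKO-labelled libraries and 2 in Ctrl-labelled ones (median log2 fold change -0.47). Mylpf, the fast isoform and the most abundant of the list, had 4107, 5507 and 5623 CPM in Ctrl-labelled libraries and 8182, 6609 and 8303 CPM in cKO-labelled ones. The groups did not overlap, and the log2 fold change of 0.60 passed narrowly (SE 0.17, adjusted p = 0.0441 from edgeR). Without library Ctrl 1, Ctrl 2, cKO 1 or cKO 3 it did not pass (log2 fold changes 0.47, 0.66, 0.54 and 0.53, highest adjusted p = 0.152), nor with total counts (0.34, adjusted p = 0.0981).

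Myl2, the slow and cardiac isoform, had 1510, 822 and 751 CPM in Ctrl-labelled libraries 1, 2 and 3 and 176, 319 and 36.3 CPM in cKO-labelled ones 1, 2 and 3. It was lower in each library labelled cKO, by a log2 fold change of -2.54 (SE 0.71, adjusted p = 0.0395), a call that was lost without library Ctrl 1, Ctrl 2, Ctrl 3 or cKO 1 (-2.15, -2.67, -2.72 and -2.55, highest adjusted p = 0.116) and in edgeR's robust fit (adjusted p = 0.0625). It held without cKO 2 and cKO 3, where the log2 fold change moved to -3.30 and -2.07. Myl12a, a non-muscle isoform, fell from 503, 608 and 548 CPM to 244, 281 and 199 CPM (log2 fold change -1.20, SE 0.14, adjusted p = 0.00338), without loss of the call in any of the 13 alternatives. Its near-identical neighbour Myl12b overlaps it in the annotation (log2 fold change -0.47, adjusted p = 0.281), so that the split of reads between them is uncertain. Myl9, the smooth muscle isoform, had a log2 fold change of -0.22 (adjusted p = 0.0589) and passed with total counts (-0.47, adjusted p = 0.00953). Myl10, with 1 count in library cKO 3, had a log2 fold change of -0.47 (adjusted p = 0.751) that turned to 0.11 without it, and Myl7 was not tested. Of 5 essential light chains, the partner subunits that these kinases do not phosphorylate, only Myl6b passed (-1.29, SE 0.23, adjusted p = 0.00918), and the abundant fast isoform Myl1 had 6462 to 8542 CPM in Ctrl-labelled libraries and 7907 to 9591 CPM in cKO-labelled ones, overlapping (log2 fold change 0.32, adjusted p = 0.194).

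The myosin phosphatase, which opposes the kinases, had 12 of 13 genes tested, 3 of them higher in cKO-labelled libraries and 2 in Ctrl-labelled ones (median log2 fold change -0.11). Among all genes tested these shares were 12.6% and 11.8%. Ppp1r14c, an inhibitor of the phosphatase when it is phosphorylated, had 43.1, 60.8 and 84.6 CPM in Ctrl-labelled libraries and 134, 127 and 146 CPM in cKO-labelled ones. All 3 values of the latter group were higher (log2 fold change 1.11, SE 0.22, adjusted p = 0.0144 from edgeR), and the call was lost without library Ctrl 2 (1.09, adjusted p = 0.0532). The catalytic subunit Ppp1cb, the most abundant of the list, had a log2 fold change of 0.33 (SE 0.08, adjusted p = 0.0296), which kept its call only without library Ctrl 3 among the 6 fits that left out a library (without the others 0.27 to 0.34, highest adjusted p = 0.0996). With total counts its log2 fold change was 0.07 (adjusted p = 0.596). The other genes that passed, named after their values were seen, were the catalytic subunit Ppp1cc (0.76), the targeting subunit Ppp1r12c (-0.51) and the regulatory subunit Ppp1r16b (-0.33, adjusted p = 0.0499), the last of which did not pass without any 1 of the 6 libraries (-0.39 to -0.29, highest adjusted p = 0.152). Ppp1r12b, the targeting subunit of striated muscle, had a log2 fold change of -0.34 that did not pass (adjusted p = 0.121) except with total counts (-0.61, adjusted p = 0.0113).

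Other kinases able to phosphorylate the regulatory light chain gave 1 of 13 higher in cKO-labelled libraries and 1 of 13 in Ctrl-labelled ones (median log2 fold change -0.07). These counts lie near the shares of all genes tested, 12.6% and 11.8%. Cdc42bpg, a kinase bound by the GTPase CDC42, had 9.27, 11.9 and 12.5 CPM in Ctrl-labelled libraries and 26.5, 25.4 and 27.2 CPM in cKO-labelled ones. Its groups were far apart for their spread (log2 fold change 1.24, SE 0.12, adjusted p = 0.00198). The related Cdc42bpb, named after its value was seen, had a log2 fold change of -0.24 that passed narrowly (adjusted p = 0.0468) and, of the fits that left out a library, passed only without cKO 2 (the others -0.27 to -0.21, highest adjusted p = 0.119). Rock2, the most abundant of the list, had a log2 fold change of -0.07 (adjusted p = 0.786), whose sign changed without library Ctrl 3 (0.10). Titin (Ttn) and Speg, giant sarcomere or triad proteins with kinase domains akin to those of the family, did not pass. Ttn, the more abundant, had a log2 fold change of 0.47 (adjusted p = 0.0685) and passed without library cKO 2 (0.54, adjusted p = 0.0438) and with DESeq2 (0.48, adjusted p = 0.0018).

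CaM kinase II, a calmodulin-activated kinase of other substrates, changed in both directions, with 2 of 4 genes higher in cKO-labelled libraries and 1 in Ctrl-labelled ones, beside 12.6% and 11.8% of all genes tested. Camk2a had 196, 263 and 340 CPM in Ctrl-labelled libraries and 661, 555 and 580 CPM in cKO-labelled ones (log2 fold change 1.17, SE 0.20, adjusted p = 0.00805), and Camk2d had 108, 135 and 179 CPM against 56.6, 62.1 and 62.0 CPM (-1.22, SE 0.18, adjusted p = 0.00524). The groups of both genes were apart and their calls held in all 13 alternatives. Camk2g, named after its value was seen, was higher by 0.64 (adjusted p = 0.0085), and the log2 fold change of Camk2b was -0.15 (adjusted p = 0.313), or -0.41 with total counts (adjusted p = 0.0176).

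**Figure D4:**
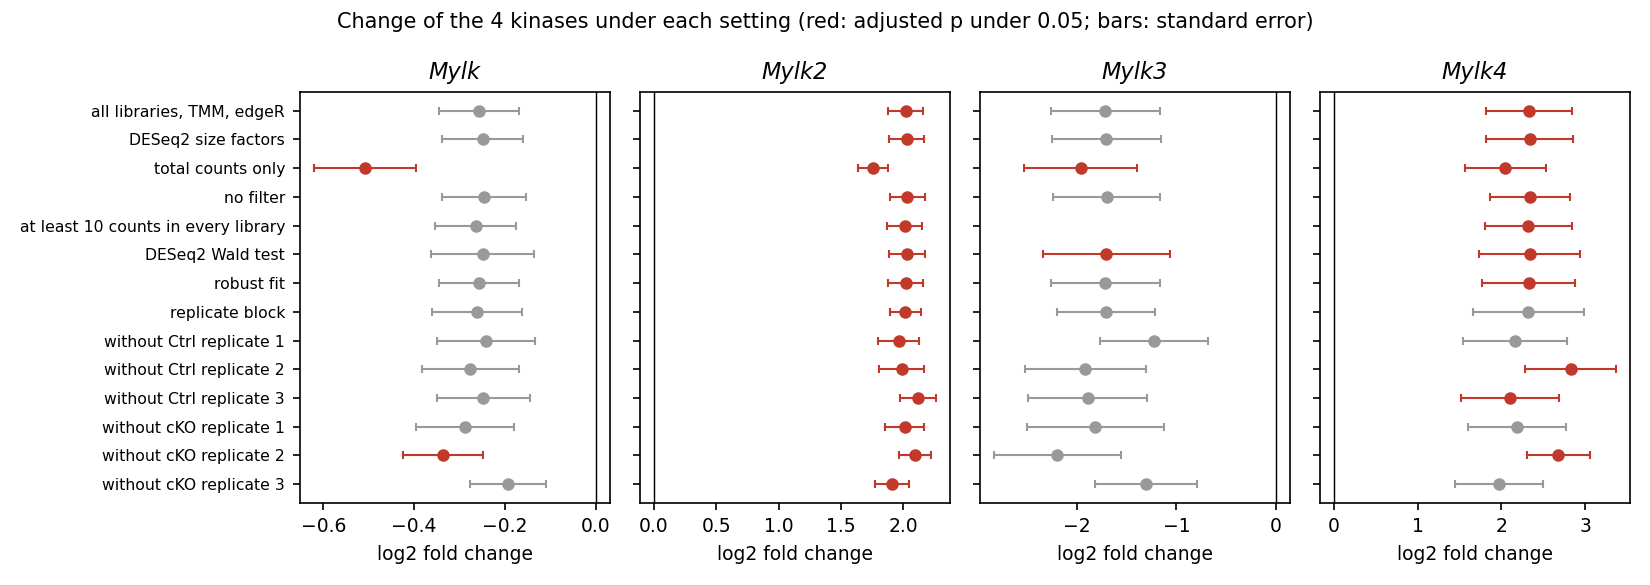
Log2 fold change, labelled cKO over labelled Ctrl (horizontal axes, a separate scale for each gene; bars are standard errors), of the 4 kinases in the fit reported and in the 13 alternatives (vertical axis); red marks an adjusted p under 0.05. Mylk2 passes in all 13 alternatives and Mylk4 in 9, Mylk and Mylk3 pass in 2 each, no direction changes, and Mylk3 has no value where 10 counts were required in every library.

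Markers of fibre types moved with the kinases. All 8 markers of fast fibres, of which Myh4 is the heavy chain of type IIb and most others are shared by fast fibres of every type, were higher in cKO-labelled libraries at an adjusted p under 0.05, against 12.6% of all genes tested (median log2 fold change 1.00), their summed level running from 56806 to 94244 CPM in Ctrl-labelled libraries and from 148524 to 188809 CPM in cKO-labelled ones. Myh4, the most abundant of them, had 15349, 24649 and 36565 CPM in Ctrl-labelled libraries and 80134, 57352 and 72862 CPM in cKO-labelled ones (log2 fold change 1.46, SE 0.33, adjusted p = 0.0213), a call lost without library Ctrl 2, cKO 1 or cKO 3 (1.44, 1.34 and 1.42, highest adjusted p = 0.0764). The calcium pump gene Atp2a1 (1.02) passed with any single library left out, whereas Actn3 (1.58), for the fast alpha-actinin, did not pass without Ctrl 2, cKO 1 or cKO 3 (1.54, 1.40 and 1.57) and Pvalb (1.44), for a calcium buffer, without Ctrl 2 or cKO 3 (1.46 and 1.38). Myh1 (-0.93, adjusted p = 0.0341) and Myh2 (-1.23, adjusted p = 0.0392), heavy chains of the other fast fibres, were higher in Ctrl-labelled libraries, and each lost its call in 4 of the 6 fits that left out a library (Myh1 without Ctrl 1, Ctrl 2, cKO 1 or cKO 2, with -0.87, -0.80, -0.84 and -0.83, and Myh2 without Ctrl 1, Ctrl 2, cKO 1 or cKO 3, with -1.09, -1.11, -1.15 and -1.04). Reads of these closely related heavy chain genes may be split between them. The part of fibre type in the levels of Mylk2 and Mylk4 was not tested. The ratios to Myh4 given above, chosen after the values were seen, are no such test.

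Of 8 slow fibre markers, 4 passed, each higher in Ctrl-labelled libraries (median log2 fold change -2.34), as were 11.8% of all genes tested, and the summed level was 8042 to 13068 CPM there and 414 to 3240 CPM in cKO-labelled libraries. Atp2a2 (-2.75), the slow calcium pump, passed except without library Ctrl 1, Ctrl 2 or cKO 1 (-2.60, -2.83 and -2.74) and moved to -3.49 without cKO 2, Casq2 (-1.55), for a calcium-storing protein, except without Ctrl 1 (-1.42), and Myoz2 (-2.16), for a Z-disc protein, without exception. Tnnt1 (-2.70), for the slow troponin T, was lost without library Ctrl 1, Ctrl 2, Ctrl 3 or cKO 1 (-2.42, -2.77, -2.87 and -2.71) and in the robust fit (adjusted p = 0.0707), and moved to -3.53 without cKO 2. Myh7, the slow heavy chain, had 3676, 1723 and 2219 CPM in Ctrl-labelled libraries and 494, 974 and 75.3 CPM in cKO-labelled ones and did not pass (-2.30, adjusted p = 0.0742), although it passed without library cKO 2 (-3.18, adjusted p = 0.037) or cKO 3 (-1.81, adjusted p = 0.0486), with DESeq2 (-2.30, adjusted p = 0.0183) and with total counts (-2.53, adjusted p = 0.0489). The library labelled cKO 2, lowest of its group in Mylk4 and in Myh4, had the highest values of its group in Myh7, Myl2 and Mylk3. In the group labelled Ctrl, Ctrl 1 was the highest in Myh7, Myl2 and Mylk3, and Ctrl 2 the highest in Mylk4.

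Markers of the cells in which Mylk is best known were also measured. Of 7 smooth muscle markers, 3 were higher in Ctrl-labelled libraries and 0 in cKO-labelled ones (median log2 fold change -0.41), with summed levels of 358 to 398 CPM and 266 to 326 CPM. Among all genes tested the shares were 11.8% and 12.6%. Cnn1, for calponin, had 3.81, 4.20 and 4.73 CPM in Ctrl-labelled libraries and 1.72, 1.79 and 1.55 CPM in cKO-labelled ones (log2 fold change -1.33, SE 0.16, adjusted p = 0.00336), Smtn, the most abundant of the list, did not pass (-0.13, adjusted p = 0.312), and the others that passed, named after their values were seen, were Myh11 (-0.57, lost without Ctrl 1, Ctrl 2 or cKO 3, with -0.54, -0.55 and -0.48) and Tagln (-0.32, lost without Ctrl 1, Ctrl 2, cKO 1 or cKO 3, with -0.36, -0.34, -0.34 and -0.31). Their part in the lower values of Mylk was not tested. Of 4 pericyte markers, which surround small vessels, 1 was higher in Ctrl-labelled libraries (summed levels 248 to 263 against 222 to 241 CPM; Rgs5, the most abundant, -0.07), as was 1 of 5 endothelial markers (378 to 390 against 335 to 368 CPM; Cdh5, -0.02). A single gene called in so short a list is not read as a result about these cells.

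Of 5 markers of heart, where Mylk3 is best known, 4 were nearly absent: Nppa and Mybpc3 were too low to be tested and Tnni3 and Ryr2 had at most 0.738 CPM. Myh6, the heart's fast heavy chain, had 659, 323 and 177 CPM in Ctrl-labelled libraries and 39.5, 71.3 and 0.250 CPM in cKO-labelled ones (log2 fold change -3.39, adjusted p = 0.103, without library cKO 3 -2.82 and 0.0378, and without Ctrl 1 or cKO 2 -2.76 and -4.32). The list summed to 178 to 660 CPM and 1.32 to 71.9 CPM, of which Myh6 was nearly all except in cKO 3, the lowest sum, where it was the smaller part. Myh6 lies next to Myh7, and reads may be shared between these similar genes. Of the other cells of muscle, immune markers had 3 of 5 tested genes higher in Ctrl-labelled libraries (summed 48.3 to 61.4 against 25.3 to 39.6 CPM), among them Cd68 (-1.12, lost without Ctrl 2, Ctrl 3, cKO 1 or cKO 3, with -1.05, -0.96, -0.96 and -1.21) and Csf1r (-0.64, lost without Ctrl 2 or cKO 3, with -0.59 and -0.66). Progenitor markers of connective tissue and fat had 1 of 4 higher there (Dcn, the most abundant, 0.20 and not passing, and -0.04 with total counts), and markers of satellite cells (Pax7, -0.10) and Schwann cells had none that passed. Among all genes tested 11.8% were higher in Ctrl-labelled libraries.

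For each kinase the 3 genes of most similar pattern were found by the root mean square difference of log2 CPM, centred on each gene's mean over the 6 libraries, among 12352 genes of at least 1 CPM on average (12353 for Mylk3). Likeness over 6 libraries describes these mice only, and a pattern shared with the kinase follows from the choice of the genes. Around Mylk2 they were Rmi2 (difference 0.12), Nos1 (0.17) and 2310065F04Rik (0.17), where the median of all genes compared was 1.03. Rmi2 had 0.792, 0.845 and 1.20 CPM in Ctrl-labelled libraries and 4.21, 3.79 and 5.18 CPM in cKO-labelled ones, and its groups did not overlap. Around Mylk4 they were Hr (0.29), Otog (0.35) and Slc25a30 (0.39; median 1.32), with larger differences than those around Mylk2. Hr had 26.3, 48.0 and 31.4 CPM in Ctrl-labelled libraries and 234, 57.7 and 195 CPM in cKO-labelled ones, and Slc25a30 had 5.44, 7.89 and 3.42 against 22.9, 6.28 and 29.3 CPM. As genes chosen for likeness to Mylk4, both had their highest control-labelled value in Ctrl 2 and their lowest value of the group labelled cKO in cKO 2. For Slc25a30 these values overlapped. Around Mylk3 they were Pdlim1 (0.23), Bdnf (0.23) and the slow fibre marker Casq2 (0.27; median 1.01), and around Mylk they were Atp1b3 (0.03), AI597479 (0.04) and Pafah1b2 (0.04; median 0.25).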

How the data were processed

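Bulk mRNA sequencing of GP muscle was available for 3 libraries labelled Ctrl and 3 labelled cKO, 1 mouse each. For every library the authors deposited a table of counts, whole numbers of reads per gene without normalization. Per the submitters' processing notes, FastQC 0.11.8, Trimmomatic 0.39, HISAT2 2.1.0, featureCounts 1.6.2 and the mm10 genome were used; the gene annotation and the use of strand in counting are not given in the sources used here. Groups come from the sample labels, which the counts of Net39 contradict.

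Counts were tested across all genes in R 4.3.3 with edgeR 4.0.16 (filterByExpr, TMM factors, glmQLFit and glmQLFTest, Benjamini-Hochberg adjustment). The study called genes at an adjusted p under 0.05 together with a change of more than 2-fold, with DESeq; here DESeq2 1.42.0 served as an alternative. Standard errors were derived from the F statistic. Log2 ratios of counts within a library (0.5 added to each count) were tested by exact permutation, two-sided, over libraries. Total counts of 33860001 to 48839910 make counting error small for all members but Mylk3. Gene models are GENCODE's (vM21) on GRCm38, and promoters are RefSeq's.

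The members and lists were chosen with earlier results of these data known. Named are the members, Net39, list genes with an adjusted p under 0.05 together with a change of more than 2-fold, the most abundant gene of each list, and for each member the 3 genes of most similar pattern. Other list genes were named after their values were seen, and some list genes are not reported here or drawn. The edgeR and DESeq2 fits were tested on counts simulated from edgeR's own fit. Alternatives were scaling by DESeq2's size factors or by total counts alone, testing without a filter or with a minimum of 10 counts per library, the Wald test of DESeq2, edgeR's robust fit, a block for the mouse number, leaving out single libraries, a pseudocount of 2 for ratios and other gene lengths. The ratios to Myh4, that of Mylk4 to Mylpf and the principal-transcript length were added after the data were seen. Protein sequences were not used here.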

Additional observations from a re-analysis of the deposited data

How the results depend on the processing

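Across 13 alternatives every log2 fold change of the 4 kinases and of Net39 kept its direction, and Mylk2 and Net39 kept their calls in all. With scaling by total counts alone, 157 genes were higher in cKO-labelled and 1023 in Ctrl-labelled libraries at an adjusted p under 0.05 together with a change of more than 2-fold (673 and 4074 without the fold limit), Mylk (-0.508) and Mylk3 (-1.966) passed, and Dcn was at -0.044. Mylk3 also passed with DESeq2's Wald test (-1.709) and has no value with at least 10 counts in every library. The mice share only a number: deviations of same-numbered mice correlated at 0.087, -0.251 and -0.012, and 1 of 3 pairs was the best match of its Ctrl library. With the replicate block, 927 and 972 genes passed in the 2 directions and Mylk4 did not (2.319, adjusted p = 0.0775). No other call of the 4 kinases changed under it, and of the other genes named Cdc42bpb, Mylpf, Ppp1cb, Ppp1r16b, Atp2a1, Myh1, Myh4 and Tagln lost theirs. With each library left out in turn, genes higher in cKO-labelled libraries numbered 172 to 387 with the fold limit and 766 to 1777 without it, and those higher in Ctrl-labelled libraries 398 to 685 and 788 to 1808. Mylk ranged from -0.336 to -0.193, Mylk3 from -2.202 to -1.228, Mylk4 from 1.974 to 2.826, and the log2 ratio of Mylk2 to Mylk4 differed by -0.694 to 0.091, reaching 0.091 without Ctrl 3 and 0.006 without cKO 3. Rock2 ranged from -0.250 to 0.101, the latter without Ctrl 3. Myl10 ranged from -0.961 to 0.108, the latter without cKO 3. Of 597 values of the 46 other genes named with a test, 501 kept their direction and side of the threshold, 80 no longer passed, 13 newly passed and 3 changed sign; the cause of these changes was not tested. Mylk3 is limited by 4 to 51 counts per library.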
